A study of Mus musculus with 12 samples.

Results

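The expression of 10 endothelial and angiogenic genes (Vegfa, Vegfb, Angpt1, Angpt2, Kdr, Flt1, Tek, Tie1, Pecam1 and Cdh5) was examined in mouse epididymal white adipose tissue (eWAT), the visceral fat pad beside the epididymis. The genes were picked by symbol: each of the 10 mouse Ensembl gene IDs was present among the 23474 genes of the expression table, and the rule used no measured value, although the list was drawn up with earlier results of these data known. Male C57BL/6J mice were placed on their diets at 5 weeks of age for 12 weeks and were 17 weeks old at sampling. The ND group received a normal diet, the HFD group a high-fat diet, the GT group the high-fat diet with an ethanol extract of green tea at 0.25% (w/w), and the TJ group the high-fat diet with 3% (w/w) Taeeumjowitang, a herbal formula. Each diet group held 10 mice and 3 libraries were made per group, 12 in all. The HFD and TJ libraries came from 3 mice each, and for ND and GT the sources do not say so, so that p-values there measure the spread between libraries, which may be technical. Expression was given as FPKM (fragments per kilobase of transcript, scaled to the mapped fragments of the library), which is a level per transcript length, so that levels of different genes can be set side by side.

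New vessels in growing fat are directed by a pair of ligand and receptor systems. Vascular endothelial growth factors (VEGFs) bind tyrosine kinase receptors on endothelial cells and drive their survival, permeability and sprouting, whereas the angiopoietins act through the receptor Tie2, encoded by Tek, to steady or loosen the vessel wall. In fat, Vegfa is made to a large extent by adipocytes themselves, while Kdr, Flt1, Tek, Tie1, Pecam1 and Cdh5 are expressed mainly by endothelial cells. The tissue was whole fat, so fewer endothelial cells and less RNA of a gene per cell cannot be told apart.

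A pair of features of the libraries bears on every value below. First, ND replicate 1 stood apart: its 8 germ cell markers summed to 98971 FPKM and its 7 epididymis epithelium markers to 13901 FPKM, against at most 2980 and 1275 FPKM in any other library. ND replicate 3 (2980 FPKM) and HFD replicate 1 (2060 FPKM) held the next highest germ cell sums and HFD replicate 2 (1275 FPKM) the next highest epididymis sum, while the TJ libraries held at most 9.23 and 12.0 FPKM of these lists. In TJ against HFD 7 of 8 germ cell markers were lower without overlap, beside 31.4% of all genes (median -3.49, none past the test). The adipocyte markers of ND replicate 1 summed to 1088 FPKM, against 4278 to 12195 FPKM elsewhere, and the 10 genes were at 0.111 to 17.9 FPKM there. Comparisons of the 10 genes with ND are therefore given with and without this library. Second, the cell markers moved with diet. The 8 macrophage markers summed to 3060 to 4343 FPKM in HFD, 1240 to 2835 FPKM in GT, 732 to 2253 FPKM in TJ and 428 to 552 FPKM in ND replicates 2 and 3. The 8 adipocyte markers summed to 4278 to 4633 FPKM in HFD, 5993 to 10076 FPKM in GT, 7535 to 12195 FPKM in TJ, and 9586 and 9417 FPKM in ND replicates 2 and 3. No marker of the adipocyte, macrophage or endothelial lists was at 0 in any library, and the part of these shifts in the results below was not tested. Library depth, approximated from the smallest steps between FPKM values, lay between about 9890000 fragments (ND replicate 1) and 18800000 fragments.

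**Figure D1:**
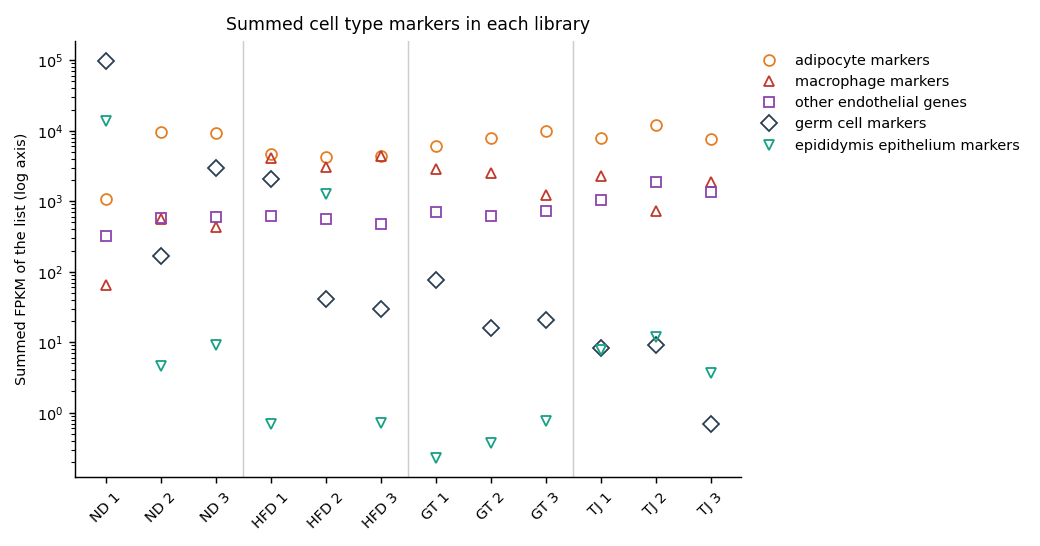
Summed FPKM of 5 marker lists (vertical log axis) in each of the 12 libraries (horizontal axis, ordered by group). ND replicate 1 holds 98971 FPKM of germ cell markers and 13901 FPKM of epididymis markers; macrophage marker sums are highest in the 3 HFD libraries and the sum of the other endothelial genes is highest in the 3 TJ libraries.

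Vegfa, the main angiogenic ligand of its family (chr17:46016993-46032369, minus strand, GRCm38), was the most abundant of the 10 genes in TJ. It measured 81.1, 96.4 and 62.2 FPKM in HFD, 102, 115 and 159.7 FPKM in GT, 149, 142 and 212 FPKM in TJ, and 8.29, 137 and 161 FPKM in ND. All TJ and all GT libraries were above the highest HFD library, as were ND replicates 2 and 3. In TJ, Vegfa rose against HFD by 1.06 on the log2(FPKM + 1) scale (SE 0.23, n = 3 per group, limma adjusted p = 0.0294), from a mean of 79.9 ± 17.1 FPKM (SD) to 168 ± 38.6 FPKM. The call was lost without the filter on low values (adjusted p = 0.0591), with all 12 libraries in one fit (adjusted p = 0.590) and in the omissions given below. In GT the log2 difference from HFD was 0.64 (SE 0.22) and did not pass the test (limma adjusted p = 0.112). Against ND without replicate 1, Vegfa fell in HFD by 0.91 on the log2 scale (SE 0.21, limma adjusted p = 0.0453), a call lost with the replicate number as a block (adjusted p = 0.182). With that library included the difference was 0.43, in the other direction and not past the test (SE 1.13).

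Vegfb encodes a second VEGF ligand, which binds Flt1 but not Kdr and is best known for roles in lipid-handling tissues (chr19:6982473-6987651, minus strand). It measured 33.0, 23.5 and 26.7 FPKM in HFD, 33.0, 33.8 and 49.3 FPKM in GT, 67.7, 108 and 61.9 FPKM in TJ, and 17.9, 41.5 and 36.4 FPKM in ND. The TJ libraries lay above the libraries of all the other groups. Vegfb had the highest log2 fold change of the 10 genes in TJ against HFD, 1.45 (SE 0.24, limma adjusted p = 0.0240), and the TJ mean was 2.86 times the HFD mean. This call was lost without the filter (adjusted p = 0.0505) and with all 12 libraries in one fit (adjusted p = 0.0873). The corresponding log2 difference was 0.46 in GT against HFD (adjusted p = 0.167) and -0.49 in HFD against ND without ND replicate 1 (adjusted p = 0.136), neither of which passed the test. With ND replicate 1 the latter was -0.13.

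The 250 bases before the RefSeq transcription start (GRCm38.p6, 5′ to 3′ on the gene's strand) are shown for both ligands that rose in TJ and, for contrast, for Tek, whose difference between TJ and HFD was the smallest of the 10 genes. Capitals mark GGGCGG, the core of the GC box recognised by Sp1-family factors, and GGAAG, a core recognised by ETS-family factors, on either strand (CCGCCC and CTTCC are their reverse complements). The regions are chr17:46032378-46032627 for Vegfa, the first of 2 starts listed, chr19:6987652-6987901 for Vegfb, both on the minus strand, and chr4:94739039-94739288 on the plus strand for Tek.
Vegfa: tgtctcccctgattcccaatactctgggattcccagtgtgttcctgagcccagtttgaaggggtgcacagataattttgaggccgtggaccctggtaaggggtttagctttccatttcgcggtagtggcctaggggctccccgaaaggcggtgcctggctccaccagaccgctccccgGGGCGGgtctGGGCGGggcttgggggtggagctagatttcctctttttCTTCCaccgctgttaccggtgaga
Vegfb: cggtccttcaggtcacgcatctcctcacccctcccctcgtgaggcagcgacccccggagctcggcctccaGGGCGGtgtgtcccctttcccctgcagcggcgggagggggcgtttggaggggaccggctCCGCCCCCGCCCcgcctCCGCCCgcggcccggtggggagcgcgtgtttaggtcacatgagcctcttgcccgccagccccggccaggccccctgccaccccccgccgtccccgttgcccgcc
Tek: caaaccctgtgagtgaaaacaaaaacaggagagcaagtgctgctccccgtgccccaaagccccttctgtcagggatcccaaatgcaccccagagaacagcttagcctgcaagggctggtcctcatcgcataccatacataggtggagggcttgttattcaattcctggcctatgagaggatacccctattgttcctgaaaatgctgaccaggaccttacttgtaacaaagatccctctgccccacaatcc
The GGGCGG motif occurred 2 times before Vegfa, 4 times before Vegfb, 2 times before Kdr, 3 times before Flt1 and 0 times before Tek and Tie1. GGAAG occurred 6 times before Tie1, 3 times before Flt1, 1 time before Vegfa and Kdr, and 0 times before Vegfb and Tek. Of all 32851 promoters in the table, 32.7% held GGGCGG and 64.1% held GGAAG in the same 250 bases. The last 2 bases of the former motif can be the first 2 of the latter. The motifs were chosen with these sequences in view, and a match is a description of the letters and not of a bound site. Promoters of Pecam1, Cdh5, Angpt1 and Angpt2 were not analysed here.

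Angpt2 encodes the angiopoietin that antagonises Tie2 in many settings and is released by endothelial cells of remodelling vessels (chr8:18690263-18741562, minus strand). It measured 7.44, 7.55 and 7.35 FPKM in HFD, 6.49, 3.45 and 3.08 FPKM in GT, 4.05, 2.99 and 5.84 FPKM in TJ, and 0.615, 1.84 and 2.23 FPKM in ND. The 3 HFD libraries had an SD of 0.0972 FPKM and lay above every other library, and every ND library was below every library of the other groups. Without ND replicate 1, Angpt2 rose in HFD by 1.48 on the log2 scale (SE 0.17, limma adjusted p = 0.00586), from an ND mean of 2.03 FPKM to 7.45 FPKM. The call was lost with the replicate number as a block (adjusted p = 0.107). With ND replicate 1 included the log2 difference was 1.78 (SE 0.37) at an adjusted p of 0.0954. The differences from HFD were -0.71 in TJ (SE 0.21, limma adjusted p = 0.0510) and -0.72 in GT (SE 0.23, limma adjusted p = 0.103), and neither passed the test. Angpt2 was a DEG in TJ against HFD without TJ replicate 3 (-0.91, limma adjusted p = 0.0277) and with array weights (adjusted p = 0.00497). Macrophage markers moved in the same direction: over the 11 libraries without ND replicate 1, the log2 level of Angpt2 had a Pearson correlation of 0.907 with the mean of the macrophage markers and -0.915 with that of the adipocyte markers. The same correlations were -0.67 and 0.795 for Vegfa, -0.51 and 0.686 for Vegfb, and -0.0352 and 0.209 for Cdh5. These libraries share their diet groups and normalisation, so these are descriptions.

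Angpt1, the Tie2 agonist supplied mainly by cells around the vessel (chr15:42424723-42676977, minus strand), had the lowest mean of the 10 genes in every group. It measured 1.55, 3.76 and 2.96 FPKM in HFD, 2.04, 2.32 and 1.25 FPKM in GT, 1.43, 0.659 and 1.86 FPKM in TJ, and 0.111, 2.1 and 1.71 FPKM in ND. Apart from ND replicate 1, which lay lowest, the ranges of all the groups overlapped. The log2 difference of TJ from HFD was -0.69 (SE 0.32, limma adjusted p = 0.144), on levels at which a pseudocount of 1 understates the change. In HFD against ND it was 0.33 without and 0.79 with ND replicate 1, neither past the test. An annotated antisense gene, Gm17473, overlaps Angpt1 exons on the other strand.

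Kdr (VEGFR2, the main signalling receptor for VEGF-A, chr5:75932827-75978458, minus strand) measured 28.2, 27.8 and 19.7 FPKM in HFD, 24.1, 27.6 and 35.6 FPKM in GT, 31.9, 29.4 and 52.1 FPKM in TJ, and 1.65, 32.7 and 35.5 FPKM in ND. Flt1 (VEGFR1, a high-affinity receptor with weak kinase activity that also exists as a soluble trap, chr5:147561604-147726011, minus strand) measured 12.1, 14.9 and 11.8 FPKM in HFD, 14.3, 15.6 and 19.8 FPKM in GT, 15.7, 15.8 and 25.6 FPKM in TJ, and 1.48, 17.3 and 17.4 FPKM in ND. For both receptors the 3 TJ libraries and ND replicates 2 and 3 lay above every HFD library, and GT overlapped HFD. TJ replicate 3 was the highest library for both. The log2 differences of TJ from HFD were 0.54 for Kdr (SE 0.25, limma adjusted p = 0.149) and 0.49 for Flt1 (SE 0.21, limma adjusted p = 0.124). Without TJ replicate 3 they were 0.29 and 0.27. For HFD against ND without ND replicate 1 they were -0.44 for Kdr (adjusted p = 0.200) and -0.41 for Flt1 (adjusted p = 0.138), and with it they were 0.81 and 0.56, none past the test. Flt1 was a DEG in TJ against HFD with quantile normalization only (0.65, adjusted p = 0.0439). Over the 11 libraries the log2 level of Vegfa had a Pearson correlation of 0.901 with Kdr and 0.918 with Flt1, as a description of libraries that share diet groups.

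Tek (Tie2, the angiopoietin receptor, chr4:94739289-94874976, plus strand) measured 15.3, 17.7 and 16.2 FPKM in HFD, 16.3, 18.1 and 20.8 FPKM in GT, 16.2, 16.7 and 26.6 FPKM in TJ, and 0.843, 20.5 and 21.8 FPKM in ND. Tie1 (an orphan partner that modulates Tie2, chr4:118471191-118490061, minus strand) measured 26.1, 23.9 and 23.3 FPKM in HFD, 33.4, 32.2 and 33.7 FPKM in GT, 30.1, 37.1 and 47.1 FPKM in TJ, and 1.72, 17.0 and 27.7 FPKM in ND. The pair thus differed in layout: for Tek the TJ and GT libraries overlapped HFD and ND replicates 2 and 3 lay above HFD, whereas for Tie1 the GT and TJ libraries were above every HFD library. The log2 differences of TJ from HFD were 0.23 for Tek (SE 0.20, limma adjusted p = 0.409) and 0.60 for Tie1 (SE 0.18, limma adjusted p = 0.0543). Without TJ replicate 3, whose level was the highest for both, they were 0.0047 and 0.44. Without ND replicate 1 the differences of HFD from ND were -0.35 for Tek and 0.16 for Tie1, and with it they were 0.85 and 1.18, none past the test. In GT against HFD, Tie1 had a log2 difference of 0.42 (SE 0.09, limma adjusted p = 0.0482), which passed the p threshold but not the 1.5-fold threshold, and Tek one of 0.15 (adjusted p = 0.409). For Tie1 this limma adjusted p was over 0.05 when any 1 of the 6 libraries was left out (0.0521 to 0.186), without the low-value filter (0.0680), without the mean-variance trend (0.0663), with the replicate block (0.107) and in joint fits without and with ND replicate 1 (0.290 and 1.00).

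Pecam1 (CD31, an adhesion molecule of endothelial junctions that is also found on platelets and some leukocytes, chr11:106654217-106750628, minus strand) measured 74.9, 81.0 and 71.2 FPKM in HFD, 80.1, 81.6 and 93.1 FPKM in GT, 75.0, 93.9 and 118 FPKM in TJ, and 5.44, 68.0 and 72.1 FPKM in ND. Cdh5 (VE-cadherin, the cadherin of endothelial adherens junctions, chr8:104101625-104144511, plus strand) measured 73.5, 81.2 and 73.7 FPKM in HFD, 74.6, 83.2 and 96.3 FPKM in GT, 84.3, 87.3 and 149.5 FPKM in TJ, and 2.93, 65.7 and 83.3 FPKM in ND. HFD overlapped GT and ND replicates 2 and 3 for both genes, and TJ lay above HFD for Cdh5 only. The log2 differences of TJ from HFD were 0.31 for Pecam1 (SE 0.18, limma adjusted p = 0.235) and 0.44 for Cdh5 (SE 0.23, limma adjusted p = 0.193). Without TJ replicate 3 they were 0.15 and 0.17. In HFD against ND without ND replicate 1 the log2 differences were 0.11 for Pecam1 (95% interval -0.18 to 0.39) and 0.04 for Cdh5 (-0.32 to 0.40), against 1.26 and 1.46 with it, none past the test. Median-of-ratios scaling turned the sign for Cdh5, and quantile normalization turned it for both.

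**Figure D2:**
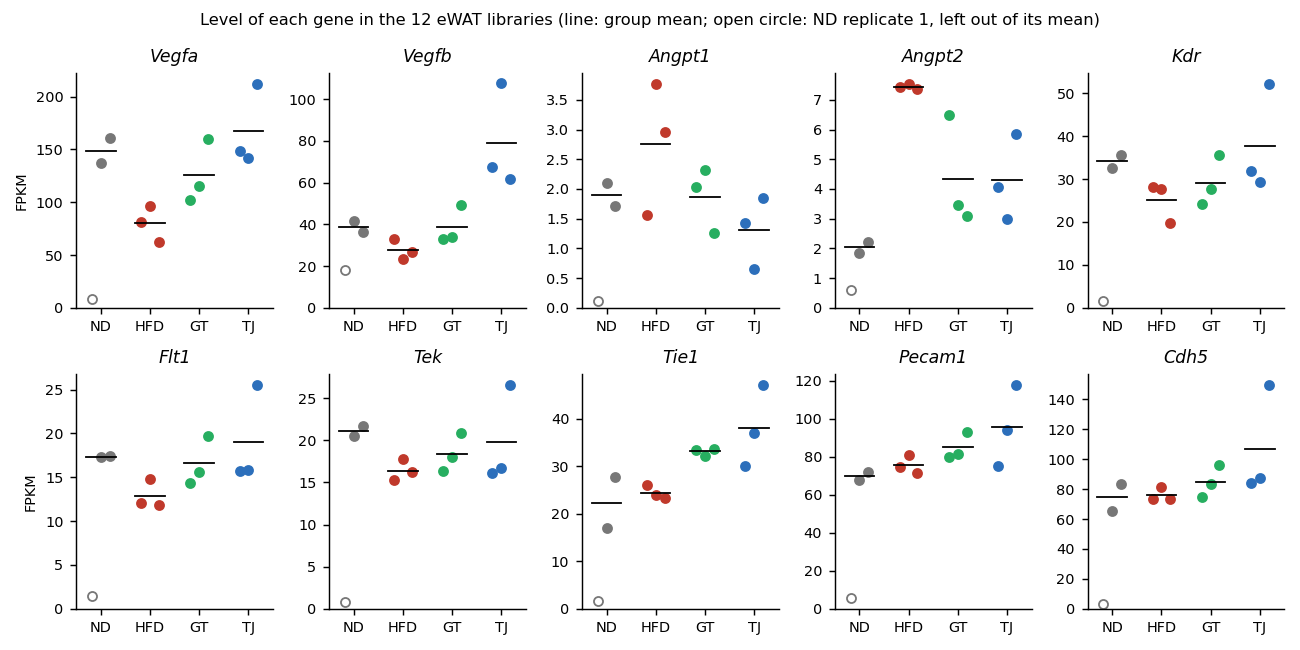
FPKM (vertical axis, linear, from 0) of each of the 10 genes in the 12 libraries, in 1 panel per gene with the groups along the horizontal axis; points are libraries, lines are group means, and the open circle is ND replicate 1, left out of the ND mean. Vegfb is highest in the 3 TJ libraries, Angpt2 is highest in the 3 HFD libraries, and Pecam1 and Cdh5 overlap between HFD and ND replicates 2 and 3.

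The comparison of TJ with HFD asked which transcripts the herbal supplement altered in fat of mice on the same high-fat diet. A gene was called a differentially expressed gene (DEG) at a Benjamini-Hochberg adjusted p under 0.05 over all genes and a fold change of at least 1.5. Of the 10 genes, 2 were DEGs that rose (Vegfa and Vegfb), beside 7.41% of all 12807 genes tested, and 0 fell, beside 11.1%. All 10 passed the filter of a mean of 1 FPKM. The median log2 difference was 0.47 over the 10 genes and -0.14 over all genes. Groups did not overlap, with TJ higher, for 6 genes (Vegfa, Vegfb, Kdr, Flt1, Tie1 and Cdh5), beside 20.1% of all genes, and with TJ lower for 1 (Angpt2), beside 31.4%. A 2-sided exact permutation test of 3 against 3 libraries gave p = 0.1 for each of these 7 genes, the smallest it can give. Among all DEGs 949 rose and 1417 fell. With median-of-ratios scaling 1285 rose and 1085 fell and the median over all genes became -0.01, and with quantile normalization these were 1543, 1151 and 0.03, so that scaling moved the reference point but not the direction of any of the 10 genes. Both scalings, as well as removal of the length trend, also called Tie1, at log2 differences of 0.73, 0.69 and 0.72, and quantile normalization called Flt1 as well. Leaving out HFD replicate 1, 2 or 3 or TJ replicate 1 left 0 DEGs among all genes by limma (3732 to 4735 genes at an unadjusted p under 0.05). Adjusted p then rose to between 0.0648 and 0.120 for Vegfa and between 0.0512 and 0.113 for Vegfb, while their log2 differences stayed between 0.89 and 1.20 and between 1.34 and 1.58.

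**Figure D3:**
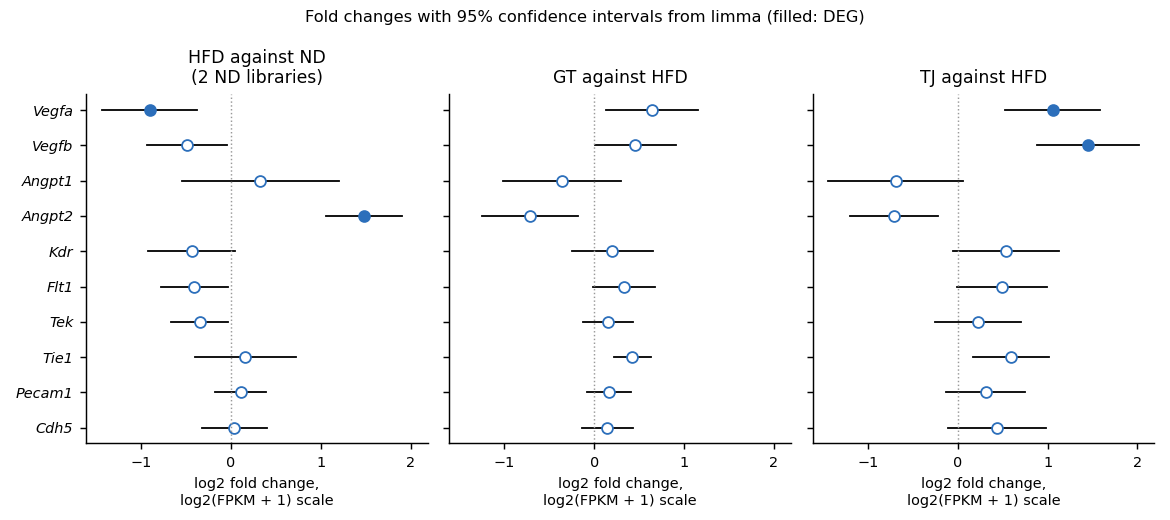
Log2 fold change of each gene on the log2(FPKM + 1) scale (horizontal axis) in HFD against ND (ND replicate 1 left out), GT against HFD and TJ against HFD; points are limma estimates, bars are 95% confidence intervals and filled points are DEGs. Angpt2 lies at 1.48 in the first panel and at -0.72 and -0.71 in the others. All panels share the same HFD libraries, so these values are not independent.

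In GT against HFD, the comparison of the green tea extract on the same diet, 0 of the 10 genes were DEGs by limma, beside 3.63% of 12766 genes tested, and 4 had an unadjusted p under 0.05 (Vegfa, Vegfb, Angpt2 and Tie1), beside 29.3% of all genes. The groups did not overlap with GT higher for 3 genes (Vegfa, Vegfb and Tie1), beside 12.3% of all genes, and with GT lower for Angpt2, beside 24.4%. The median log2 difference was 0.18 over the 10 genes and -0.12 over all genes, of which 233 rose and 231 fell as DEGs, against 400 and 145 with median-of-ratios scaling. These counts rested on single libraries: leaving out HFD replicate 1 left 39 that rose and 27 that fell, and leaving out HFD replicate 2 or 3 or GT replicate 2 or 3 left 1 or 2 that rose and 3 to 5 that fell. Without GT replicate 1, 375 rose and 732 fell, among them Angpt2 by 0.99 on the log2 scale (limma adjusted p = 0.0284). GT and TJ were compared with the same 3 HFD libraries, and the difference between the extracts was not tested.

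In HFD against ND, which addressed the effect of the high-fat diet itself, 0 of the 10 genes were DEGs by limma with all 3 ND libraries, beside 1.77% of 14430 genes, and 1 (Angpt2) had an unadjusted p under 0.05, beside 11.6% of all genes. Without ND replicate 1, Angpt2 rose, beside 11.0% of 13661 genes that rose, and Vegfa fell, beside 4.34% that fell. These totals changed when single libraries were left out: the 255 DEGs with all ND libraries became 0 without any 1 HFD library and 24 or 23 without ND replicate 2 or 3. The 1505 genes that rose and 593 that fell without ND replicate 1 became 797 and 218 when HFD replicate 1 was also left out, 704 and 171 for HFD replicate 2, and 466 and 78 for HFD replicate 3, and 903 fell when ND replicate 2 was. Without ND replicate 1, groups did not overlap with HFD lower for 5 genes (Vegfa, Vegfb, Kdr, Flt1 and Tek), beside 19.2% of all genes, and with HFD higher for Angpt2, beside 28.0%. With it, 0 of the 10 genes were lower without overlap, beside 850 of 14430 genes, and Angpt2 alone was higher, beside 2961. The 3 receptors among the 5 genes, Kdr, Flt1 and Tek, had log2 differences of -0.44, -0.41 and -0.35 without ND replicate 1 (SE 0.19, 0.15 and 0.13). With it they were 0.81, 0.56 and 0.85, and none passed the test. With the replicate number as a block, 0 of the 10 genes were DEGs with or without ND replicate 1, where 0 of 14430 and 501 of 13661 genes were called. Vegfa also missed the threshold when any further library was left out (adjusted p of 0.0674 to 0.122), and Angpt2 when HFD replicate 3 was (0.0651).

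TJ against ND gave 0 DEGs among the 10 genes and among all genes by limma, with ND replicate 1 (0% of 14251 genes) or without it (0% of 13314 genes). At an unadjusted p under 0.05 these were 1 of the 10 with it (Vegfb) and 2 without it (Vegfb and Tie1), beside 10.8% and 23.8% of all genes. The 0 over all genes also rested on single libraries: without ND replicate 2, 20 genes rose and 1128 fell, and with array weights 1284 rose and 2883 fell. Without ND replicate 1 the groups did not overlap, with TJ higher, for Vegfb, Angpt2, Tie1, Pecam1 and Cdh5, beside 22.1% of all genes. Their log2 differences were 0.96, 0.77, 0.76, 0.42 and 0.48, and 1.32, 1.07, 1.78, 1.57 and 1.89 with ND replicate 1. In a fit that pooled the spread of all 11 libraries, Vegfb (adjusted p = 0.0327) and Tie1 (adjusted p = 0.0383) were DEGs, beside 16.7% of all genes in that fit.

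By group mean, with ND replicate 1 left out, Vegfa, Vegfb, Kdr and Flt1 ran in the order HFD, GT, ND and TJ from lowest to highest. Among neighbours in that order HFD and GT were separated for Vegfa and Vegfb only, and ND and TJ for Vegfb only. Tek ran from HFD through GT and TJ to ND with overlap at each step. Tie1, Pecam1 and Cdh5 ran from ND through HFD and GT to TJ, separated only between HFD and GT for Tie1. Angpt2 ran in another order, ND, TJ, GT and HFD, with TJ and GT overlapping, and Angpt1 ran from TJ through GT and ND to HFD with overlap throughout.

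Related genes were also set against each other within a library. The log2 ratio of Tek to Tie1, each with 1 FPKM added, was -0.74, -0.41 and -0.50 in HFD, -0.99, -0.80 and -0.67 in GT, -0.86, -1.10 and -0.80 in TJ, and -0.56, 0.25 and -0.33 in ND. Every TJ library was below every HFD and ND library, with mean differences of -0.37 from HFD and -0.71 from ND (-0.88 without ND replicate 1). The log2 ratio of Angpt2 to Angpt1 was 1.72, 0.84 and 1.08 in HFD, 1.30, 0.42 and 0.86 in GT, 1.06, 1.27 and 1.26 in TJ, and 0.54, -0.13 and 0.25 in ND. Both HFD and TJ lay above ND, by 0.99 and 0.97 (1.15 and 1.13 without ND replicate 1). This layout depended on the added 1 FPKM, which weighs most at such low levels: the plain ratio was 5.53 in ND replicate 1, above every HFD (2.01 to 4.79) and TJ library (2.84 to 4.54), and 0.876 and 1.30 in ND replicates 2 and 3, below all of them. The plain ratio of Tek to Tie1 was 0.451 to 0.564 in TJ, 0.585 to 0.742 in HFD, 0.490 in ND replicate 1 and 1.20 and 0.786 in ND replicates 2 and 3. Each of the 4 differences with all libraries had an exact permutation p of 0.1, the smallest possible with 3 against 3, and 0.4 after Benjamini-Hochberg adjustment over the 16 tests of 4 ratios in 4 comparisons. With 0.1 FPKM added in place of 1, 1 of the 16 had groups that did not overlap. Vegfa to Vegfb and Flt1 to Kdr overlapped in every comparison, with Flt1 to Kdr between -1.16 and -0.69 in the 11 libraries without ND replicate 1.

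Lists of related genes, chosen by role, gave the setting of these values. Of 20 other endothelial genes, 15 rose in TJ against HFD (beside the 7.41% of all genes above) and 0 fell, with a median log2 difference of 1.07 against -0.14 over all genes. Gpihbp1, which carries lipoprotein lipase to the capillary lumen, had the highest at 1.78 (84.8, 73.8 and 63.1 FPKM in HFD, 175, 443 and 212 FPKM in TJ). Cldn5, a tight junction protein, stood at 1.69, Egfl7, a secreted endothelial factor, at 1.65, and Nos3, endothelial nitric oxide synthase, at 1.41. Cd93, a receptor also found on myeloid cells, had the lowest, -0.88 (adjusted p = 0.0638). In GT against HFD 1 of the 20 rose (Mmrn2, 0.68), beside 233 of 12766 genes, and the list median was 0.34, against -0.12 over all genes. The sum of the list was 480 to 617 FPKM in HFD, 612 to 736 FPKM in GT and 1058 to 1890 FPKM in TJ, where the lists of adipocyte and macrophage markers also shifted (6 of 8 adipocyte markers rose and 6 of 8 macrophage markers fell, beside 11.1% of all genes that fell). Of 5 progenitor and stromal markers 2 fell and all 5 were lower in TJ without overlap (median -1.27), beside 31.4% of all genes that were lower without overlap. None of 5 red blood cell markers passed the test (median 0.90), and TJ replicate 2 had the highest sum both of the endothelial list, 1890 FPKM, and, among the libraries other than ND replicate 1, of the red blood cell markers, 1169 FPKM. Without TJ replicate 2, 15 of the 20 endothelial genes rose, with a median of 0.86. Leaving out HFD replicate 1, 2 or 3 or TJ replicate 1 left 0 DEGs among all genes, and so 0 of the 20.

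These endothelial genes were shorter than the members. Over all genes tested the log2 difference of TJ from HFD had a Spearman correlation of -0.356 with transcript length, a description across genes. The 15 endothelial genes that rose had a median longest transcript of 1987 nt, the other 5 one of 4213 nt, the 10 members 4115 nt (Vegfb 1281 nt, Vegfa 3451 nt) and all genes 3021 nt. All 8 endothelial genes under 2000 nt rose, and 7 of the 12 longer ones. With the trend on length removed, 12 of the 20 rose with a median of 0.92, and Vegfa and Vegfb kept log2 differences of 1.10 and 1.13 (limma adjusted p of 0.0309 and 0.0328).

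**Figure D4:**
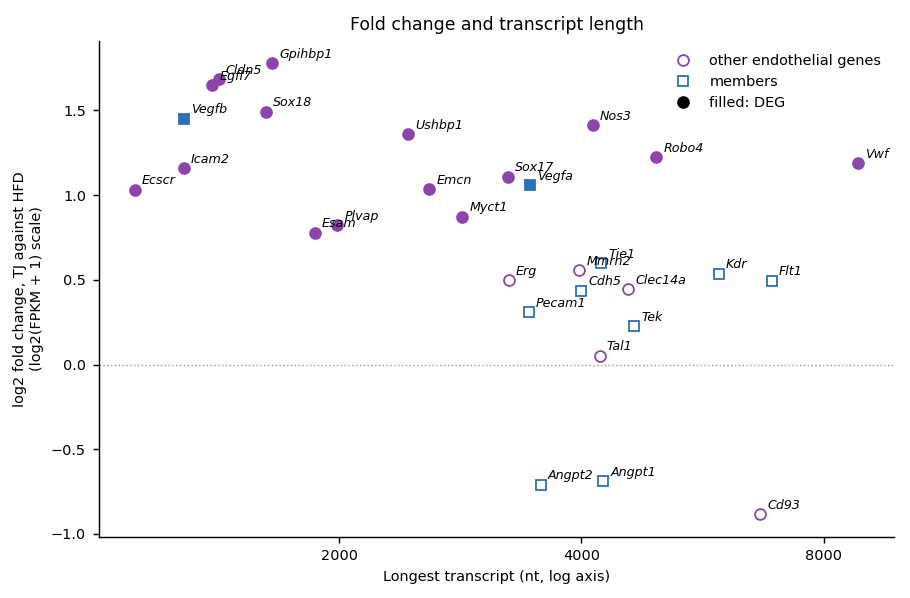
Log2 fold change in TJ against HFD on the log2(FPKM + 1) scale (vertical axis) against the longest annotated transcript in nt (horizontal log axis) for the 10 members (squares) and the 20 other endothelial genes (circles); filled points are DEGs. All 8 circles under 2000 nt are filled, Vegfb sits among them at 1281 nt, and the other members lie between 3441 and 6895 nt.

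Among 10 other VEGF and angiopoietin pathway genes, 9 were tested and 1 fell in TJ against HFD, a share at that of all genes (11.1%). This was Nrp2, a co-receptor for semaphorins and VEGF-C, at -1.35 (limma adjusted p = 0.0323). Angptl4, a secreted inhibitor of lipoprotein lipase, had the highest difference at 0.45 and did not pass. Nrp2 also fell in GT against HFD, by 0.74, and rose in HFD against ND without ND replicate 1 by 1.58, as did Plxnd1, an endothelial semaphorin receptor, by 1.43 (2.39 with all ND libraries, not past the test). Both rises without ND replicate 1 stood beside 11.0% of all genes that rose. Pgf, placental growth factor, had the lowest difference in HFD against ND with all libraries, -0.37, and 0.19 without ND replicate 1.

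Of 12 tested Notch, tip cell and sprouting genes, 1 rose in TJ against HFD, a share near the 7.41% of all genes. This was Ephb4, a venous receptor kinase, which rose by 0.98, and by 0.70 in GT against HFD. Cxcr4, a chemokine receptor of tip cells and leukocytes, had the lowest difference at -1.42 (adjusted p = 0.0515). Without ND replicate 1, Cxcr4 and Aplnr, the apelin receptor, rose in HFD against ND by 1.92 and 1.68, beside 11.0% of all genes that rose. With all ND libraries the extremes of this list were Jag1 (-0.21) and Cxcr4 (2.52), of the endothelial list Cldn5 (-0.42) and Cd93 (2.25), and none passed. Cd93 alone of the 20 other endothelial genes rose without ND replicate 1, by 1.41, beside the same 11.0% of all genes.

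Among 3 tested lymphatic genes, Pdpn (-0.96) and Lyve1 (-0.78) fell in TJ against HFD, beside 11.1% of all genes, and Ccl21a was at -0.06. Both that fell are also expressed by other cells of fat. The extremes in HFD against ND were Ccl21a (-0.57) and Pdpn (0.47), not past the test. Without ND replicate 1 Lyve1 fell by 0.67, beside 4.34% of all genes that fell. Of 9 tested mural cell genes, the pericyte genes Kcnj8 (1.13) and Higd1b (1.04) rose in TJ against HFD, beside 7.41% of all genes, and Notch3 had the lowest difference (-0.70, adjusted p = 0.164). Other pericyte genes of the list lay lower in TJ than in HFD without overlap, as 31.4% of all genes did, and without passing the test, Pdgfrb at -0.38 and Cspg4 at -0.45, whereas Rgs5 was at 0.65 and Abcc9 at 0.24, with overlap. For HFD against ND these extremes were Cnn1 (-0.78) and Pdgfrb (1.94), not past the test. Pdgfrb rose by 0.90 without ND replicate 1, beside 11.0% of all genes that rose.

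Vegfa is a textbook target of hypoxia-inducible factors, so 10 other such targets were set beside it. Of the 8 tested in TJ against HFD, Adm, adrenomedullin, rose (0.76), while Car9, a carbonic anhydrase (-0.91), Slc2a1, the glucose transporter GLUT1 (-0.72), and Pdk1, pyruvate dehydrogenase kinase (-0.60), fell, beside 7.41% of all genes that rose and 11.1% that fell. Bnip3 (0.55, adjusted p = 0.0383, under 1.5-fold) and Ndrg1 (0.44, adjusted p = 0.0996) were higher in TJ without overlap, as 20.1% of all genes were. Pgk1, phosphoglycerate kinase (-0.33, adjusted p = 0.136), was lower without overlap, as 31.4% of all genes were. None of these was a DEG. The list median was -0.25. Between HFD and ND without ND replicate 1, Car9 (1.59) and Pgk1 (0.80) rose and Ndrg1 (-1.78) and Bnip3 (-0.82) fell. In that comparison 11.0% of all genes rose and 4.34% fell. With all ND libraries the extremes were Ankrd37 (-0.55) and Pgk1 (1.64), not past the test.

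The genes outside the members whose log2 levels followed Cdh5 most closely over the 12 libraries were Ets1, Mylip, Arap3, S1pr1 and Gypc, with Pearson correlations of 0.991 to 0.987 among 13935 genes. Those closest to Vegfa were Cd38, Adgrf5, Timp3, Sema3g and Btnl9, with correlations of 0.987 to 0.981. Both sets rested largely on ND replicate 1: over the other 11 libraries the closest to Cdh5 were Mmp15 (0.954), Dll4, Erg, Fzd8 and Arap3 (0.894), and the closest to Vegfa were Zbtb46 (0.946), Prodh, Gjc1, Adgrf5 and Fgf11 (0.930), with 1 of 5 genes shared with the first set in each case. The libraries share diet groups and normalisation, and these are descriptions of likeness.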

How the data were processed

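RNA from eWAT was made into mRNA libraries (TruSeq RNA) and sequenced as paired ends. The authors aligned reads with STAR (2.4.0 in the submitters' processing notes, another version in the study's methods, which name the human genome although all 23474 gene IDs are mouse) and the deposited FPKM values were made with Cufflinks 2.1.1, with multi-read and fragment bias correction. The study's counts were not used here. IDs were named with GENCODE M21 on GRCm38 (22671 matched), and promoters came from RefSeq.

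Per pair of groups, genes whose mean reached 1 FPKM were fitted as log2(FPKM + 1) by limma 3.58.1 in R 4.3.3 (lmFit, eBayes with trend), with Benjamini-Hochberg adjustment over all genes tested. Single values were compared by exact permutation (scipy 1.17.1). The fit was tested on simulated data. Named genes were the 10 members, the highest and lowest gene of each context list in TJ against HFD and in HFD against ND, DEGs of lists with at most 5, and the 5 genes most correlated with Cdh5 and Vegfa; Cldn5, Egfl7, Nos3, Cspg4, Rgs5, Abcc9 and, in TJ against HFD, Bnip3, Ndrg1, Pgk1 and Pdgfrb were added after their values were seen. Members and lists were chosen with earlier results of these data known. Replicate numbers were taken to pair samples where every same-numbered pair's deviations from the group means correlated above 0.1. With all libraries this held for HFD and ND (0.547, 0.342 and 0.122) and for no other pair of groups. A differently numbered pair, HFD replicate 3 and ND replicate 2, correlated at 0.626, above each of these, so the rule does not show pairing. Without ND replicate 1 it failed (0.347 and -0.642), and the block there is a sensitivity setting only. FPKM carries no exact depth, so no counting intervals were given. Alternatives are listed in the closing section.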

Additional observations from a re-analysis of the deposited data

How the results depend on the processing

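The number of members that were DEGs in TJ against HFD was 2, and it was 0 without the filter on low values or with all libraries in one fit, 1 with the replicate block (Vegfb; the numbers do not pair these groups), 3 with median-of-ratios scaling, a stricter 5 FPKM filter, the length trend removed or all libraries but ND 1 in one fit, and 4 with quantile normalization or array weights. Over all genes 2366 were called, against 382, 1, 1198, 2694 and 3306 for no filter, one fit, the block, quantile normalization and array weights. Leaving out 1 library gave 0 to 3. For GT against HFD it was 0, 2 with array weights and 0 to 1 with 1 library left out. For HFD against ND it was 0, 1 with all libraries in one fit or array weights, 2 with all libraries but ND 1 in one fit, and 0 to 2 with 1 library left out. Without ND replicate 1 it was 2, 1 with no filter, array weights or no mean-variance trend, 0 with the replicate block, and 0 to 1 with a further library left out. For TJ against ND it was 0, 1 with array weights and 2 when all libraries but ND 1 were fitted together. The replicate block changed no other call. Of the 16 ratio tests, groups were apart in 4, and in 1 with a pseudocount of 0.1.

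Between HFD and ND the log2 differences of Vegfa, Kdr, Flt1 and Tek turned negative without ND replicate 1 or with the other libraries in one fit (-0.91, -0.44, -0.41 and -0.35) and with array weights (-0.96, -0.49, -0.37 and -0.29). With 1 library left out in turn they ranged up to 1.15, 1.46, 1.04 and 1.47. That of Vegfb turned to 0.49 with the length trend removed and ranged from -0.49 to 0.10 with 1 library left out. For TJ against ND, Angpt1 and Tek turned to -0.36 and -0.12 without ND replicate 1 and to -0.15 and -0.18 with array weights, and ranged up to 0.38 and 1.69 with 1 library left out. Where ND replicate 1 was left out of HFD against ND, Pecam1 turned to -0.029 with quantile normalization, and Cdh5 to -0.0062 with median-of-ratios scaling and -0.11 with quantile normalization. With a further library left out, Tie1 ranged from -0.17 to 0.50 and Cdh5 from -0.13 to 0.21. In TJ against ND under the same omission, Vegfa turned to -0.21 and Angpt1 to 0.18 with quantile normalization, Flt1 to -0.026 with array weights and Tek to 0.038 with the length trend removed, while with a further library left out Vegfa ranged from -0.029 to 0.27, Kdr from -0.15 to 0.25 and Flt1 from -0.13 to 0.20. The cause was not tested. Removal of the length trend, the fit without ND 1 and the omissions of ND replicate 1 from all settings, ratios and likeness were added after seeing the data. The depth behind a single gene is unknown from FPKM, and 3 libraries a group (2 for ND without replicate 1) limit every test.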
